A study of Mus musculus with 384 samples.

Results

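The nuclear factor I family comprises the 4 transcription factor genes Nfia, Nfib, Nfic and Nfix. All 4 were among the 32813 genes of the deposited tables and were followed through single bipolar cells of the mouse retina. The family was selected on the measured level of Nfia, which was known from these cells to be low in the Vsx1-high kind, so the differences of Nfia are given as descriptions without a test. Cells were sorted as YFP-positive from dissociated retinas of 2 mice at postnatal day 17, with 1 plate of 96 wells for each of 4 retinas, called 1la and 1Ra (mouse 1) and 2la and 2Ra (mouse 2). All cells carried the same alleles: Cre recombinase at the Kcng4 locus, which marks only cells that have used this potassium channel gene, and a Thy1-stop-YFP Line#1 transgene, whose Thy1 promoter limits which of them fluoresce. Libraries were made with Smart-seq2, a full-length method that does not mark the strand of origin, and there was no treatment.

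Of 383 cells with values, 321 had at least 3000 genes at an expected count of 1 or more. Each was placed by 3 genes outside the family, at a threshold of 20 TPM (a transcript level scaled to transcript length and to the library's total). Vsx1, a homeodomain transcription factor of bipolar cells, was the only one past the threshold in 60 cells (Vsx1-only). Ddit4l, a regulator of growth signalling, was the only one in 59 cells (Ddit4l-only), and Sox6, a transcription factor of the SOX family, in 151 cells (Sox6-only). Another 18 cells had more than 1 of them and 33 had none, so the 3 groups held 270 cells, 84.1% of those kept. From retinas 1la, 1Ra, 2la and 2Ra came 16, 18, 14 and 12 Vsx1-only cells, 10, 19, 20 and 10 Ddit4l-only cells, and 33, 30, 46 and 42 Sox6-only cells. The lowest Vsx1 level inside that threshold was 31.01 TPM and the highest outside it 15.8 TPM. The same edges lay at 28.96 and 16.92 TPM for Ddit4l, and at 20.8 and 18.7 TPM for Sox6, so the Sox6 threshold had cells close to it on both sides.

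Total counts per cell ranged from 203657 to 1945582 over the 3 groups, and the median number of genes was 6540 in Vsx1-only, 6387 in Ddit4l-only and 6335 in Sox6-only cells. The bipolar label held: of 10 bipolar markers, 9, 7 and 9 reached 1 TPM in the majority of the cells of Vsx1-only, Ddit4l-only and Sox6-only. Of 9 Müller glia markers, 2, 2 and 3 did so, and the defining genes Rlbp1, Aqp4 and Apoe had a median of 0 TPM in all 3 groups. Summed Müller marker levels reached 1000 TPM in 3 of 60 Vsx1-only, 2 of 59 Ddit4l-only and 17 of 151 Sox6-only cells. Summed rod marker levels reached 1000 TPM in 18, 11 and 43 cells of the same groups.

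Nuclear factor I proteins bind DNA as dimers through a shared N-terminal domain, and their full site joins a copy of TTGGC to its reverse complement across a short spacer. In the mouse brain they are known for turning progenitors towards glia. In the mouse retina Nfia, Nfib and Nfix are known from late progenitors and Müller glia and are needed for the last-born cell classes, which include bipolar cells.

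In GRCm38 (mm10, GENCODE annotation), Nfia lies at chr4:97772734-98118874 on the plus strand, and Nfib on the same chromosome at chr4:82290173-82705750 on the minus strand. Nfic lies at chr10:81396186-81455635 and Nfix at chr8:84699876-84800344, both on the minus strand. The members with an entry are shown here by the 250 bases before their starts in RefSeq (GRCm38.p6), each on the strand of its gene, with matches to the 6 letters of a homeodomain core, TAATTA, in capitals, because the group marker Vsx1 is a homeodomain protein. Nfib has no entry among these sequences. The only Nfia start listed, at chr4:97581693-97581942, lies upstream of the GENCODE gene, inside the span of the antisense gene E130114P18Rik. The Nfic window is chr10:81427174-81427423, and 2 of the 4 Nfix windows are shown, chr8:84780083-84780332 (start 1) and chr8:84773411-84773660 (start 3).
Nfia: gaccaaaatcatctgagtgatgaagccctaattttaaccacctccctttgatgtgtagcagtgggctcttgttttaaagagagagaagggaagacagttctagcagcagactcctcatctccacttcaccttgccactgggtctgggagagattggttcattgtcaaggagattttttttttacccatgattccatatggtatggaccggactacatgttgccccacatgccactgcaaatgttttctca
Nfix start 1: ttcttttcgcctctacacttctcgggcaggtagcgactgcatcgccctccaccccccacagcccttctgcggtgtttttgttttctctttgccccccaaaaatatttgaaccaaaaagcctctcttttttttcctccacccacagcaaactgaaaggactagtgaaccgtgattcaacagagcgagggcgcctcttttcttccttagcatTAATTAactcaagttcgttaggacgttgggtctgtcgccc
Nfix start 3: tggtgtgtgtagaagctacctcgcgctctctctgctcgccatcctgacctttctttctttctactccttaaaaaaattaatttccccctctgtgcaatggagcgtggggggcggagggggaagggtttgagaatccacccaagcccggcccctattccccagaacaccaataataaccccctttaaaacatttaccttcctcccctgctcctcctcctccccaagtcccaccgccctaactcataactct
Nfic: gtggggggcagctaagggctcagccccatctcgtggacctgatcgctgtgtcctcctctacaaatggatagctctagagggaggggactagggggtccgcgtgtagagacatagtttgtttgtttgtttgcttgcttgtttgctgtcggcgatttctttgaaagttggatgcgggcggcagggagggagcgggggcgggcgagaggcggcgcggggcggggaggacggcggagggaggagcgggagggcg

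The TAATTA core was found in the window of Nfix start 1, and in 4.84% of all 32851 RefSeq promoter windows searched. It was not among the letters of the Nfia, Nfic and Nfix start 3 windows. The bases just after Nfix start 1 and after the Nfia start were found in 0 GENCODE transcripts of their gene. Those after Nfix start 3 were found in 1 and those after the Nfic start in 2. The TAATTA match thus lies before a start without such a transcript. The family's own TTGGC, sought on both strands, was in none of these 4 windows, and was present once in each of the other Nfix windows (starts 2 and 4). It occurs in 41.5% of all windows, and the full site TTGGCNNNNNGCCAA in 12 windows (0.0365%), none of them a member's. These are matches of letters, not measured binding.

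Nfia had the highest TPM of the family in the majority of Ddit4l-only and Sox6-only cells, but not in all of them. Its TPM ran from 0 through a median of 0.15 to 173 in Vsx1-only cells. It ran from 1.27 through 570 to 2350 TPM in Ddit4l-only cells and from 0 through 358 to 2416 TPM in Sox6-only cells. It reached 1 TPM in 13 of 60 Vsx1-only cells (21.7%; exact 95% interval 12.1% to 34.2%), in 59 of 59 Ddit4l-only cells (100%; 93.9% to 100%) and in 149 of 151 Sox6-only cells (98.7%; 95.3% to 99.8%). These intervals cover counting error only. The share in Vsx1-only cells depended on the level asked for: 34 of 60 (56.7%) had an expected count of 1 or more of Nfia, with a median of 1 count, against medians of 1254 counts in Ddit4l-only and 810 counts in Sox6-only cells. Low counts of the transcript were thus found in the majority of the pooled Vsx1-only cells, far below the level of the other groups. This majority did not hold in each retina. Every Vsx1-only cell of retina 2la and most of 2Ra had a count of 1 or more, against a minority in 1la and in 1Ra. Whether mice or plates differ in this share was not tested.

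Summed over the cells of each retina, Nfia was at 1.80, 6.68, 7.43 and 76.3 CPM (counts scaled to the library's total, not to length) in the Vsx1-only sums of 1la, 1Ra, 2la and 2Ra. The Ddit4l-only sums of the same retinas had 1373, 1433, 1368 and 1287 CPM, and the Sox6-only sums 985, 853, 900.2 and 911 CPM. No Vsx1-only retina came near the other groups, and each Ddit4l-only retina was above each Sox6-only retina. Over the 4 retinas the means were 23.1 ± 35.6 CPM in Vsx1-only, 1365 ± 60.04 CPM in Ddit4l-only and 912 ± 54.3 CPM in Sox6-only cells (SD, n = 4 retinas of 2 mice). In sums per mouse, fitted with the mouse as a block, the log2 fold change of Nfia was -6.53 ± 1.13 (SE) for Vsx1-only against Ddit4l-only cells. It was -5.95 ± 1.11 for Vsx1-only against Sox6-only cells and 0.58 ± 0.87 for Ddit4l-only against Sox6-only cells. Each edgeR SE was derived from the test statistic, with 1 spread shared by the 3 groups, so it includes the uneven Vsx1-only sums. Within retinas 1la, 1Ra, 2la and 2Ra the log2 ratio of Ddit4l-only to Sox6-only sums (CPM + 1) was 0.48, 0.75, 0.60 and 0.50.

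**Figure D1:**
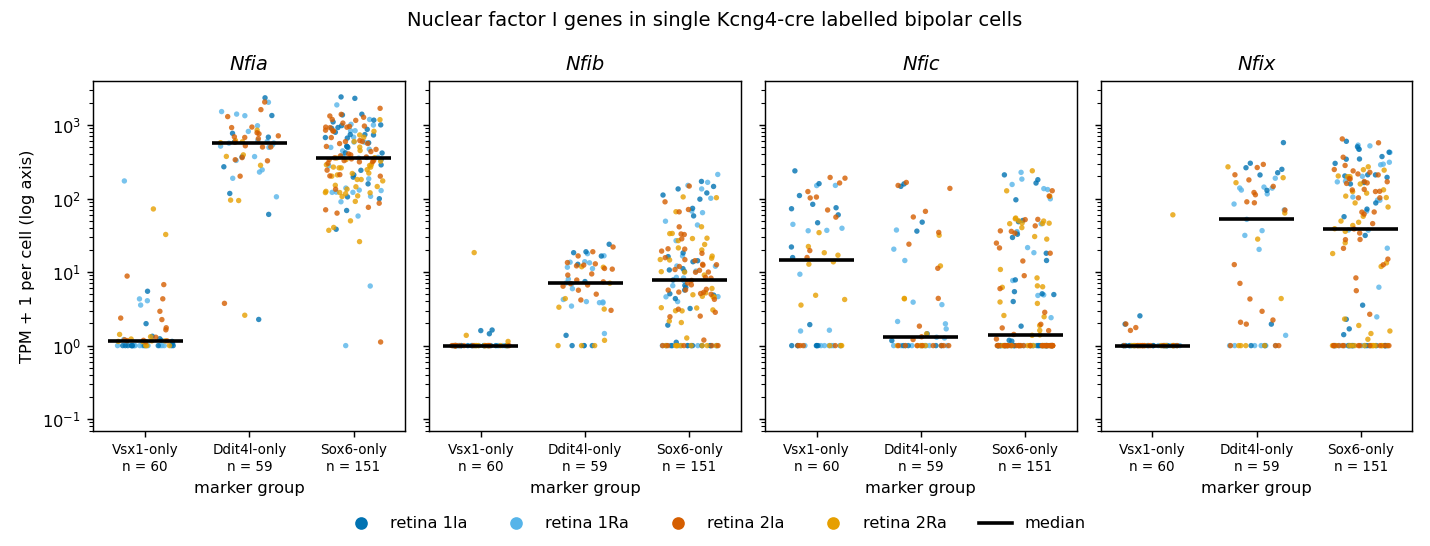
TPM + 1 of each family member in every cell (log axis), by marker group, coloured by retina, with a bar at the median. Nfia sits near 0 TPM in Vsx1-only cells and at a median of 570 and 358 TPM in Ddit4l-only and Sox6-only cells; Nfix follows with many cells at 0, and Nfic has its highest median, 13.8 TPM, in Vsx1-only cells.

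Retina 2Ra stood apart in the Vsx1-only group, and a pair of its cells held most of the group's Nfia counts. One of its 12 Vsx1-only cells had 638 Nfia counts, 53.3% of the 1197 Nfia counts of all 60 Vsx1-only cells. The same cell held 96.6% of the group's Nfib counts and 94.1% of its Nfix counts, and all 4 members reached 1 TPM in no other Vsx1-only cell. Its summed Müller marker level was 24091 TPM, with Apoe at 12662 TPM and Glul, glutamine synthetase, at 4842 TPM, while Vsx1 was at 56.7 TPM. A second 2Ra cell gave 299 Nfia counts (31.5 TPM). That cell had Cabp5, a calcium-binding protein of the other bipolar groups, at 869 TPM and a summed rod level of 4706 TPM. Only 1 further Vsx1-only cell passed 10 TPM of Nfia, at 173 TPM in 1Ra, with 0 TPM of Cabp5. Without cells at 1000 TPM or more of summed Müller markers, a choice made after the data were seen, the Nfia log2 fold change was -7.31 against Ddit4l-only and -6.72 against Sox6-only cells.

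Nfix had the same arrangement at a lower level and in fewer cells. Its TPM ran from 0 through a median of 0 to 59.2 in Vsx1-only, from 0 through 51.2 to 577 in Ddit4l-only, and from 0 through 37.7 to 648 in Sox6-only cells. It reached 1 TPM in 2 of 60 Vsx1-only (3.33%), 41 of 59 Ddit4l-only (69.5%) and 99 of 151 Sox6-only cells (65.6%). The retina sums of 1la, 1Ra, 2la and 2Ra had 0.154, 0, 0.178 and 7.74 CPM of Nfix in Vsx1-only cells. They had 195, 53.1, 72.6 and 79.8 CPM in Ddit4l-only and 136, 121, 106 and 60.8 CPM in Sox6-only cells. Every Vsx1-only retina was below every retina of the other groups, whose own ranges overlapped.

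edgeR's quasi-likelihood test on the mouse sums gave Nfix a log2 fold change of -6.14 ± 1.67 for Vsx1-only against Ddit4l-only cells, with an adjusted p of 0.289. Against Sox6-only cells it was -6.32 ± 1.68 with an adjusted p of 0.460, and between Ddit4l-only and Sox6-only cells -0.17 ± 1.27 with an adjusted p of 0.996. A gene was called at an adjusted p under 0.05 and at least a 2-fold change, and none of Nfib, Nfic and Nfix was called in any of the 3 comparisons. The background was low: 0.0421% of 16646 genes were called for Vsx1-only against Ddit4l-only cells, and 0.0% in each of the other comparisons, where 1429 and 1342 genes had an unadjusted p under 0.05. With 2 mice the fit has few degrees of freedom, and a missed threshold does not show equal levels. DESeq2 called 11.6% and 6.44% of genes in the comparisons with Vsx1-only cells, Nfix among them with adjusted p of 1.57542e-06 and 1.48972e-06. Without the cells rich in Müller transcripts, edgeR gave Nfix -10.04 against Ddit4l-only cells with an adjusted p of 0.0480, a call among 0.0549% of genes, and -10.29 against Sox6-only cells with an adjusted p of 0.0665. This removal was chosen after the data were seen. A single removed cell had held 96.02 of the 102.02 Nfix counts of Vsx1-only cells, so both sizes rest on few counts.

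**Figure D2:**
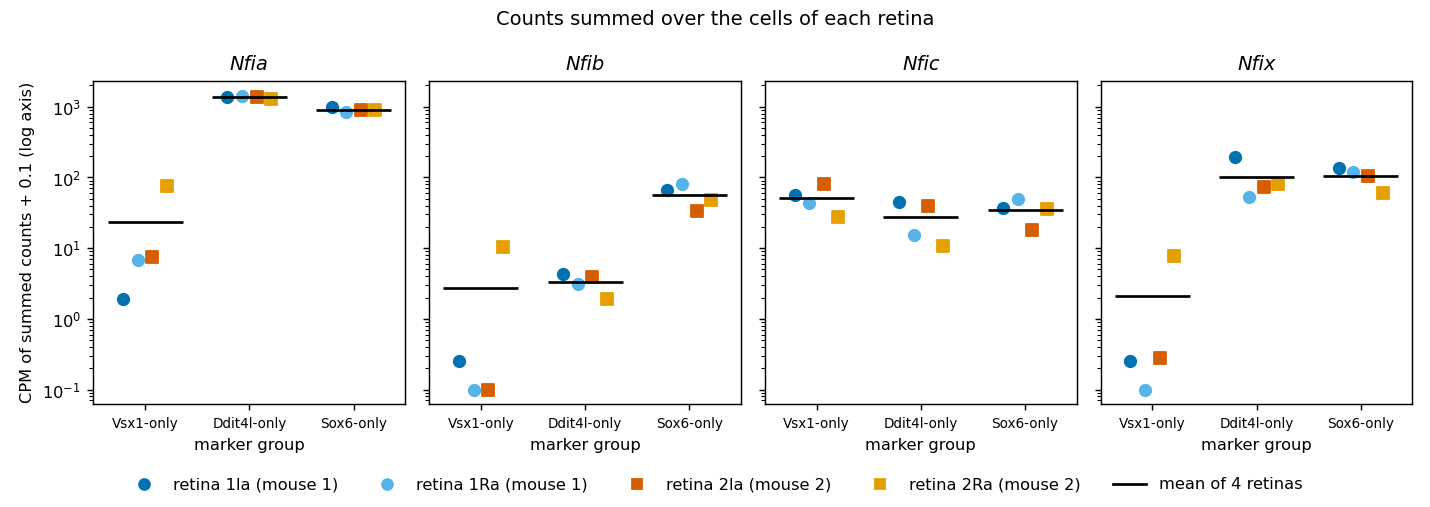
CPM + 0.1 (log axis) of each member in the counts summed over the cells of each retina, by marker group, with circles for mouse 1, squares for mouse 2 and a bar at the mean of 4 retinas. In Vsx1-only sums, retina 2Ra has 76.3 CPM of Nfia, 10.2 CPM of Nfib and 7.74 CPM of Nfix, above the other 3 retinas.

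Nfib had similar median TPM in Ddit4l-only and Sox6-only cells, and its high counts were found in Sox6-only cells, a difference that edgeR did not call. Median TPM was 0 in Vsx1-only, 6.13 in Ddit4l-only and 6.80 in Sox6-only cells, and 1.67%, 83.1% and 76.8% of cells reached 1 TPM. The upper ends differed, with a highest level of 17.4 TPM in Vsx1-only, 22.9 TPM in Ddit4l-only and 212 TPM in Sox6-only cells. In counts, 1 of 60 Vsx1-only cells and 0 of 59 Ddit4l-only cells had 20 or more, and a count of 0 allows a share of up to 5.08% there. In Sox6-only cells 45 of 151 (29.8%) had 20 or more, with 8 of 33, 10 of 30, 14 of 46 and 13 of 42 in retinas 1la, 1Ra, 2la and 2Ra. The highest count was 12.9 in a Ddit4l-only cell and 505 in a Sox6-only cell. A subset of Sox6-only cells with many Nfib counts was thus present in each retina, and the Ddit4l-only cells had no such subset at this number of cells. The level of 20 counts was chosen after the counts were seen.

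In retina sums of 1la, 1Ra, 2la and 2Ra, Nfib was at 0.154, 0, 0 and 10.2 CPM in Vsx1-only cells. It was at 4.14, 3.06, 3.84 and 1.81 CPM in Ddit4l-only cells and at 65.9, 79.8, 33.1 and 47.8 CPM in Sox6-only cells. The Sox6-only retinas lay above all others, and Vsx1-only 2Ra lay above the Ddit4l-only retinas while the other Vsx1-only retinas lay below them. The mouse-sum log2 fold change was -4.12 ± 1.69 for Ddit4l-only against Sox6-only cells (edgeR, adjusted p 0.641). Without the Müller-rich cells it was -3.92 ± 0.65 (edgeR, adjusted p 0.447). With all cells it was -5.25 ± 1.93 for Vsx1-only against Sox6-only cells (edgeR, adjusted p 0.580) and -1.13 ± 1.74 for Vsx1-only against Ddit4l-only cells (edgeR, adjusted p 0.863). Without the Müller-rich cells these values were -9.65 (adjusted p 0.140) and -5.72 (adjusted p 0.140), so the size of both depended on those cells. A single removed cell had held 125.95 of the 130.32 Nfib counts of Vsx1-only cells, so both sizes then rest on few counts. DESeq2 called Nfib lower in Ddit4l-only than in Sox6-only cells, with an adjusted p of 0.0322 where 5.56% of genes were called. It also called it lower in Vsx1-only than in Sox6-only cells, with an adjusted p of 0.00159.

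The value of an Nfib count in TPM was not the same in the 2 groups that carry it. The median cell had 0.472 Nfib counts per TPM in Ddit4l-only and 0.691 in Sox6-only cells, against 2.72 and 2.27 Nfia counts per TPM in the same groups. RSEM divides counts by the length of the transcripts it assigns them to. In cells with at least 20 counts of a gene, the length implied by counts and TPM was compared between the 10th and 90th percentile. It spread 6.01-fold for both Nfia and Nfib, 3.897-fold for Nfic and 1.24-fold for Nfix, against a median of 1.41-fold over genes. For Nfib these were 58 cells, 45 of them Sox6-only and 0 Ddit4l-only, so the spread does not cover Nfib in Ddit4l-only cells. Nfib counts amounted to 0.244% of the Nfia counts in Ddit4l-only and 5.66% in Sox6-only cells. The longest identical run between annotated Nfia and Nfib transcripts was 25 bases, and whether reads of one were assigned to the other was not tested.

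**Figure D3:**
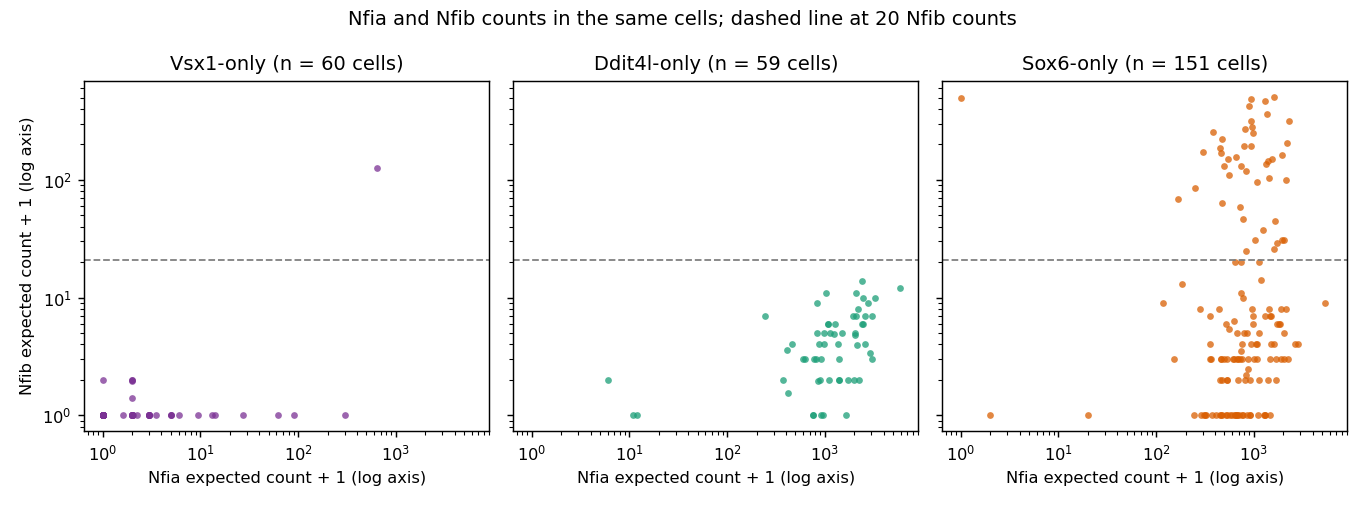
Nfib against Nfia expected counts (both + 1, log axes) in each cell of the 3 marker groups; the dashed line marks 20 Nfib counts. Points above the line number 1 of 60 in Vsx1-only, 0 of 59 in Ddit4l-only and 45 of 151 in Sox6-only cells.

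One Sox6-only cell of 1Ra had 0 Nfia counts and 492 Nfib counts. This was the only cell of the 151 in which Nfib reached 1 TPM and Nfia did not. The same cell had 0 TPM of Nfic, Nfix and Cabp5, whereas the median of Cabp5 in Sox6-only cells was 1390 TPM. Whether the cell was of the same kind as the other Sox6-only cells was not tested.

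Nfic was the one member that was not lowest in Vsx1-only cells. Its TPM ran from 0 through a median of 13.8 to 237 in Vsx1-only, from 0 through 0.30 to 165 in Ddit4l-only, and from 0 through 0.40 to 238 in Sox6-only cells. It reached 1 TPM in 36 of 60 Vsx1-only (60%; exact 95% interval 46.5% to 72.4%), 23 of 59 Ddit4l-only (39%; 26.5% to 52.6%) and 68 of 151 Sox6-only cells (45%; 36.9% to 53.3%). Retina sums of 1la, 1Ra, 2la and 2Ra had 55.97, 43.1, 79.8 and 27.2 CPM in Vsx1-only, 45.5, 15.2, 38.9 and 10.8 CPM in Ddit4l-only, and 36.4, 49.5, 18.03 and 35.4 CPM in Sox6-only cells. Within every retina the Vsx1-only sum exceeded the Ddit4l-only sum, but the ranges of all 3 groups overlapped. edgeR gave 0.85 ± 0.42 for Vsx1-only against Ddit4l-only cells (adjusted p 0.488), 0.71 ± 0.42 for Vsx1-only against Sox6-only cells (adjusted p 0.758) and -0.14 ± 0.42 for Ddit4l-only against Sox6-only cells (adjusted p 0.980). Without retina 2la the Vsx1-only against Sox6-only value was -0.072. In bulk sums such as these, fewer cells with a transcript and less of it per cell cannot be told apart, which is why the per-cell shares stand beside them.

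In TPM, which sets genes on one length scale, the members divided differently among the groups. Nfic was the leading member in 35 of the 44 Vsx1-only cells whose family reached 1 TPM (79.5%), and Nfia in the other 9. Nfia led in 53 of 59 Ddit4l-only cells (89.8%) and in 131 of 150 Sox6-only cells (87.3%), and Nfix in 5 and 15 cells of these groups. The summed family level had a median of 16.2 TPM in Vsx1-only, 677 TPM in Ddit4l-only and 503 TPM in Sox6-only cells. The commonest combination in Vsx1-only cells was Nfic alone, in 29 of 60, and no member reached 1 TPM in 17. The commonest in the other groups was Nfia with Nfib and Nfix, in 19 of 59 Ddit4l-only and 44 of 151 Sox6-only cells. All 4 members were present in 13 and 32 cells of these groups.

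Across the 270 cells, Nfia TPM had a Spearman correlation of 0.64 with Nfib, of 0.37 with Nfix and of -0.13 with Nfic. These cells share 4 plates and 2 mice, and the pooled values contain the differences between groups. Among 9597 genes at 1 TPM or more in at least 20% of the cells, Nfib ranked 2 and Nfix 31. By Pearson's correlation Nfib ranked 11 with log2(TPM + 1) and 22 with log2(TPM + 10), where its value was 0.45. Nfia's correlation with the number of genes detected was -0.03. Inside Ddit4l-only cells, Nfib was the gene most like Nfia of 9679 (0.65; 0.80, 0.44, 0.51 and 0.66 in retinas 1la, 1Ra, 2la and 2Ra; 0.51 when counts replaced TPM). Inside Sox6-only cells it ranked 12 of 9248 (0.36; 0.61, 0.24, 0.24 and 0.26 in the same retinas; 0.23 in counts). Inside Vsx1-only cells it was 0.08 with 6 cells above 0 counts of Nfib. Nfix did not follow Nfia from cell to cell inside the groups that carry both, at -0.14 in Ddit4l-only (0.27 in counts) and 0.08 in Sox6-only cells.

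Outside the family, the gene most like Nfia over the pooled cells was Kcnh6, a voltage-gated potassium channel (0.65). It was followed by Esrrg, an orphan nuclear receptor (0.60), Lhx4, a LIM homeodomain factor (0.60), and Epha7, a receptor for ephrins (0.59). Then came Meis2, a homeodomain factor (0.56), the antisense gene E130114P18Rik (0.55), Cabp5 (0.55), Lmo4, a LIM-only cofactor (0.52), and Kcng4 itself (0.52). At the other end stood Igfn1 (-0.62), Pcp4l1 (-0.62), the calcium-binding proteins Cabp2 (-0.60) and Cabp1 (-0.58), and Vsx1 (-0.57), which defines the Nfia-poor group. Trim30a (-0.57), Tmsb10, a small actin-binding protein (-0.56), Plch2, a phospholipase (-0.55), Gm15389 (-0.53) and Sec1 (-0.53) completed the 10 lowest. Median TPM of Kcnh6 was 0.585 in Vsx1-only, 1566 in Ddit4l-only and 1688 in Sox6-only cells, and that of Igfn1 was 325, 0 and 0 TPM in the same groups. The genes were chosen by their pooled correlation, so their difference between the groups is a description. Igfn1, Pcp4l1, Cabp2, Cabp1, Vsx1 and Sec1 reached 1 TPM in 80% to 100% of Vsx1-only cells and in 1.69% to 13.9% of the cells of each other group, so they passed the filter of 20% of cells only through the group where they are high.

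Apart from Nfib in Ddit4l-only cells, the genes of the pooled list had correlations closer to 0 within each group than over the pooled cells. Inside Vsx1-only cells, where 25 of 60 had 0 TPM of Nfia, Lhx4 had 0.41, Lmo4 0.39, Esrrg 0.34, Meis2 0.34 and Epha7 0.29. The large majority of those 25 cells came from mouse 1, so these values can contain a difference between mice or plates. They were not taken per retina. Kcnh6 had 0.26 in Vsx1-only, -0.02 in Ddit4l-only and 0.42 in Sox6-only cells, the highest value there. In the Vsx1-only cells of 1la, 1Ra, 2la and 2Ra taken singly it had 0.26, 0.10, 0.29 and 0.11. Without retina 2Ra, Kcnh6 had 0.27 in Sox6-only cells and ranked 55, and by Pearson's correlation of log2(TPM + 1) it ranked 4. The next in Sox6-only cells were Gm26924 (0.42), Gm26543 (0.40), Kcng4 (0.39), Calb1, calbindin (0.38), Tmem229b (0.37) and Cacna2d4, an auxiliary calcium channel subunit (0.37). Trpm1, the cation channel of the ON bipolar response (0.36), Ccdc60 (0.36) and Pfkp, a glycolytic enzyme (0.36), closed the 10. Gm26924 had a median of 48472 TPM in Sox6-only cells, and ranked 58 by Pearson's correlation of log2(TPM + 1). The lowest there were Plce1 (-0.36), Slco6c1 (-0.33), Gm514 (-0.33), Cdk14 (-0.31) and Snrnp27 (-0.31). In Ddit4l-only cells Nfib was followed by Prkacb, a catalytic subunit of protein kinase A (0.48), Sars (0.47), Ppia, cyclophilin A (0.46), Fkbp4 (0.45) and the potassium channel Kcnb2 (0.45). Rasa3 (0.44), Ccdc85b (0.44) and Gm16195 (0.42) came after these, and the lowest were Gmpr2 (-0.50), Tubb2a (-0.43), Sipa1 (-0.43), Snrk (-0.43) and Ric8 (-0.43). The 1st and 99th percentiles of all genes were -0.30 and 0.32 in Ddit4l-only and -0.20 and 0.24 in Sox6-only cells.

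**Figure D4:**
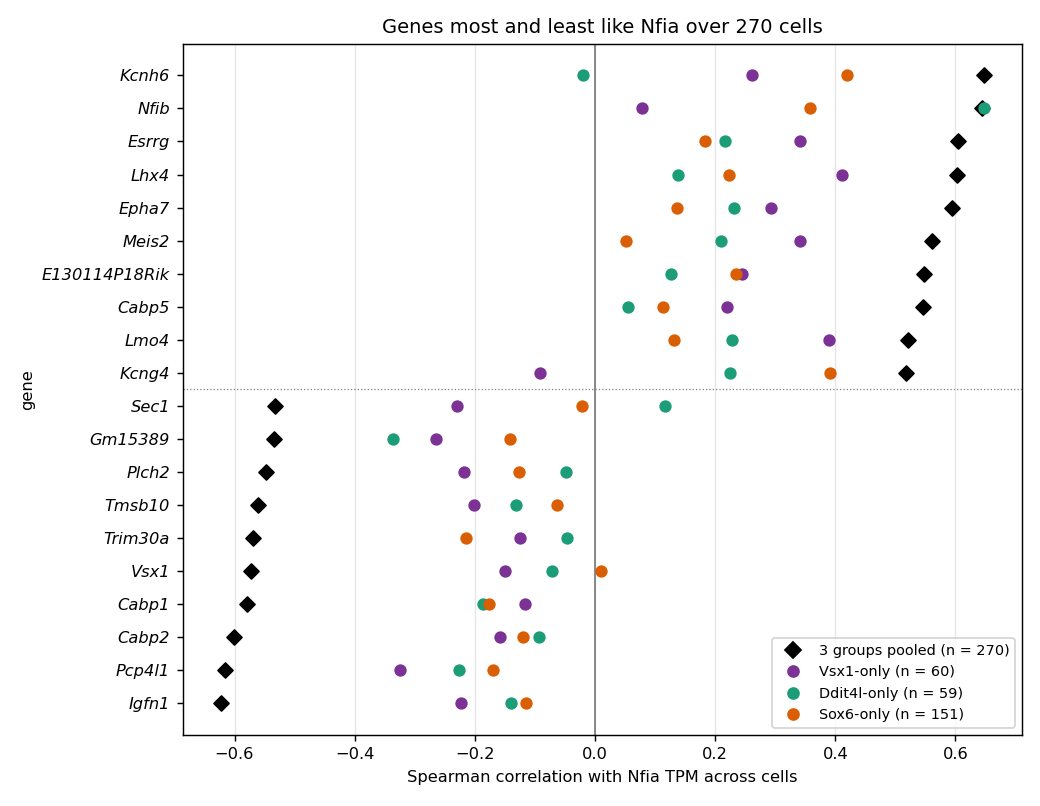
Spearman correlation with Nfia TPM of the 10 most and 10 least alike genes, over all 270 cells (black diamonds) and inside the Vsx1-only, Ddit4l-only and Sox6-only groups (coloured circles). The pooled values reach 0.65 and -0.62, and most values inside groups lie closer to 0, with Nfib in Ddit4l-only cells (0.65) as the exception.

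E130114P18Rik needs a caution of position. It lies on the opposite strand at chr4:97568133-97778078 and overlaps Nfia over 5345 bases, and reads from that stretch cannot be assigned to a strand here. Its correlation with Nfia is therefore uncertain. Opposite-strand neighbours also overlap Nfib, Nfic (Gm16104) and Nfix (Lyl1 and G430095P16Rik).

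Nfix was most like Meis2 (0.43), Epha7 (0.42), Lhx4 (0.41), Kcnh6 (0.39) and E130114P18Rik (0.37) over the pooled cells. Nfib, after Nfia, was most like Epha7 (0.49), Lhx4 (0.47), Kcnh6 (0.44) and Esrrg (0.44), so 3 genes, Epha7, Lhx4 and Kcnh6, stood among the 5 most alike for both. Nfic had weaker and different neighbours, among them Camk1d (0.26), Rtn4 (0.25), Tmsb10 (0.25) and Mkl2 (0.24). Its correlation with the number of genes detected was 0.20, which was the highest of the 4 members. The promoter windows of the genes most like Nfia held TTGGC in 7 of 15 (46.7%; 9 of 10 genes matched), and those of the least alike in 10 of 16 (62.5%; 10 of 10 genes). Over all RefSeq windows the share was 41.5%. Several starts of 1 gene count as separate windows, some of them overlapping. By gene, 4 of 9 and 8 of 10 had a window with TTGGC.

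Genes that nuclear factor I proteins are reported to regulate in other mouse cells were not called in the mouse sums. Of all genes tested, 0.0421% were called for Vsx1-only against Ddit4l-only cells and 0.0% in each other comparison. The absence of calls is therefore no result about this list. Of 18 genes so reported, 12 were tested, and 0 were called in each comparison. Their median log2 fold change was 0.27 for Vsx1-only against Ddit4l-only cells, -0.08 for Vsx1-only against Sox6-only cells and -0.19 for Ddit4l-only against Sox6-only cells, beside 0.01, -0.05 and -0.08 over all genes. In retina sums, where p-values are too small because both retinas of an animal enter as if unrelated, 9 were tested. Insc, a regulator of spindle orientation, was called lower in Vsx1-only and in Ddit4l-only than in Sox6-only cells, in comparisons where 0.806% and 0.551% of genes were called. Insc was at 0, 0, 0.0594 and 0 CPM in Vsx1-only, at 0, 0, 0.0396 and 0 CPM in Ddit4l-only, and at 10.4, 6.14, 14.6 and 13.9 CPM in Sox6-only retinas, in the order 1la, 1Ra, 2la and 2Ra. Nfib, too, was higher in each Sox6-only retina than in all retinas of the other groups. A link of Insc to any member was not tested.

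Among 27 tested bipolar transcription factors, 1 was called in the mouse sums, where 0.0421% of all genes were called. This list was chosen with earlier results of these data known. Meis2, Lhx4 and Esrrg were also among the genes most like Nfia over the pooled cells, which contain the same group differences. The calls below are therefore descriptions, and their number beside the share of all genes tests nothing about the list. Meis2 was lower in Vsx1-only cells, at 17.8, 8.18, 3.92 and 21.4 CPM, than in Ddit4l-only cells, at 1335, 970, 716 and 1004 CPM, in the same order of retinas (edgeR log2 fold change -6.28 ± 0.23, adjusted p 0.0180). This call was lost without rod-rich cells and without retina 1la or 1Ra, where 0 genes were called in this comparison. In retina sums, where 2.3% of genes were called, 6 of 25 were called, 5 lower in Vsx1-only than in Ddit4l-only cells (Irx3, Meis2, Lhx4, Esrrg and Neurod4) and Sox5 higher. Against Sox6-only cells 5 of 25 were lower (among them Meis2, Esrrg, Bhlhe23 and Neurod4), where 0.806% of genes were called, and Irx3 was higher in Ddit4l-only than in Sox6-only cells, where 0.551% were called. Esrrg was at 17.4, 11.6, 22.3 and 62.8 CPM in Vsx1-only retinas, against 1858, 1309, 1550 and 816 CPM in Ddit4l-only retinas, with retina 2Ra again the highest of its group. The 14 tested progenitor and glial regulators, the setting in which the family is best known, had 0 calls in the mouse sums. At most 0.0421% of all genes were called there in any comparison, so this is no result about the list. In retina sums 1 of 9 was called, Pax6, lower in Vsx1-only cells at 9.09, 8.10, 3.80 and 34.4 CPM, against 26.9, 37.8, 40.5 and 196 CPM in Ddit4l-only retinas.

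The cells outside the 3 groups also divided by Nfia. Of the 33 cells with none of the 3 markers, 14 had Nfia under 1 TPM and 11 had it at 20 TPM or more, and the Spearman correlation of Nfia with Cabp5 over these cells was 0.73. All 18 cells with more than 1 marker had Nfia at 62.1 TPM or more. Its median was 199 TPM in the 6 with Vsx1 and Sox6, 324 TPM in the 2 with Vsx1 and Ddit4l, and 392 TPM in the 10 with Ddit4l and Sox6. Of the 62 cells with fewer than 3000 genes, 26 had Nfia at 1 TPM or more.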

How the data were processed

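Per the labels, single cells were sorted one to a well and sequenced single-end after Smart-seq2; the submitters' processing notes name TopHat2 2.0.10, RSEM 1.2.28 and mm10, while strand setting and annotation are not given in the sources used here. The authors deposited expected counts (RSEM's estimated counts per gene, need not be whole) and TPM, both for 383 of 384 cells; the other cell is not analysed here. The 4 members, the marker groups and the gene lists were chosen with earlier results of these data known. No doublet caller was run, and cells with more than 1 marker were kept out of the groups. Expected counts were rounded, added up over the cells of each mouse and group (6 sums) and tested over 16646 genes with edgeR 4.0.16 (quasi-likelihood, TMM, filterByExpr, mouse as block, Benjamini-Hochberg; R 4.3.3, limma 3.58.1), checked on simulated data; DESeq2 1.42.0 and sums per retina were alternatives. The block comes from the animals: each mouse gave cells to all 3 groups. Deviations of same-mouse sums correlated at 0.03, 0.03 and 0.07 between groups. With this block, p-values measure how far the differences between groups varied between the 2 mice, with 1 estimate of spread shared by the 3 groups. The 2 retinas of a mouse and their plates cannot be told apart. Named genes were the 10 most and least like Nfia pooled, the 10 most and 5 least inside Ddit4l-only and Sox6-only cells, the 5 most like each other member, and up to 4 called members of each list; a few genes that this rule names are not reported here. Motifs were sought with Python 3.11.15 (pandas 2.3.3, scipy 1.17.1) in RefSeq promoter windows.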

Additional observations from a re-analysis of the deposited data

Results flagged for a closer look

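Of 12 member and group combinations looked at over 4 retinas, 3 had a retina far from the other 3, and chance alone marks about 1 in 20. All 3 were the Vsx1-only sum of retina 2Ra, which had 76.3 CPM of Nfia, 10.2 CPM of Nfib and 7.74 CPM of Nfix. The 3 values share cells: a single cell held 53.3% of the group's Nfia counts, 96.6% of its Nfib and 94.1% of its Nfix counts. That cell had 24091 TPM of summed Müller glia markers beside 56.7 TPM of Vsx1; the part of Müller transcripts in the result was not tested beyond the fit without such cells.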

How the results depend on the processing

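The number of genes called depended on the test. For Vsx1-only against Ddit4l-only, Vsx1-only against Sox6-only and Ddit4l-only against Sox6-only cells, edgeR on mouse sums called 7, 0 and 0 genes. Without the mouse as a replicate block it called 62, 16 and 2. Retina sums blocked by retina gave 333, 117 and 80, DESeq2 1763, 976 and 868, and limma on log2(mean TPM + 1) 196, 62 and 21. The first count was 4 at a marker threshold of 50 TPM, 4 at 5000 genes per cell and 0 without rod-rich cells; the second was 3 with no filter on low counts and 1 at 50 TPM. Leaving out retina 1la, 1Ra, 2la or 2Ra gave 0, 0, 11 and 4 for the first, and 0 to 0 for the other comparisons. Leaving out 1la or 1Ra thus ended all 7 calls.

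Nfix was also called by limma, at -5.59 (adjusted p 0.0286) and -5.86 (adjusted p 0.0399) in the comparisons of Vsx1-only with Ddit4l-only and Sox6-only cells, by DESeq2 at -6.28 and -6.39, and without Müller-rich cells at -10.04 in the first. Few Nfix counts of Vsx1-only cells remained in that last fit. Nfib was called by DESeq2 at -5.24 (Vsx1-only) and -4.07 (Ddit4l-only) against Sox6-only cells. Leaving out retinas or mice, Nfib ranged from -6.33 to 0.40 for Vsx1-only against Ddit4l-only cells (0.40 without 2la, 0.30 without mouse 1), from -9.95 to -2.95 for Vsx1-only and from -4.43 to -3.25 for Ddit4l-only against Sox6-only cells. Nfix ranged from -9.53 to -4.15, from -9.85 to -4.34 and from -0.88 to 0.32 (0.32 without 1Ra) in the same order. Nfic ranged from 0.59 to 1.14, from -0.072 (without 2la) to 1.14, and from -1.13 to 0.30 (0.30, 0.22 and 0.25 without 1Ra, 2Ra and mouse 1). Nfia ranged from -8.20 to -5.20, from -7.62 to -4.62 and from 0.52 to 0.68, and was 0.36 by limma for Ddit4l-only against Sox6-only cells. Without a mouse there is no test.

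At 10 TPM the shares were 5% for Nfia in Vsx1-only cells, 37.3% and 40.4% for Nfib in Ddit4l-only and Sox6-only cells and 31.1% for Nfic in Sox6-only cells. At an expected count of 1 they were 56.7% for Nfia in Vsx1-only and 55.9% for Nfic in Ddit4l-only cells. At a marker threshold of 50 TPM Nfia was at 100% in Sox6-only cells, and Nfib was at 0% in Vsx1-only cells without Müller-rich cells. Leaving out retinas, the Nfib share in Vsx1-only cells ranged from 0% (without 2Ra) to 2.38%.

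Of the 10 genes most like Nfia pooled, 9 remained whichever retina was left out, and 8 with Pearson's correlation at either pseudocount. Inside Ddit4l-only cells 3 to 7 remained without a retina, 1 with Pearson's correlation of log2(TPM + 1) and 3 with log2(TPM + 10). Inside Sox6-only cells 2 to 8, 4 and 6 remained. The causes of these changes were not tested. Of 429 alternative values, 372 were labelled the same, by rules that differed between kinds of value. Tested members needed only the same direction and side of the call threshold. Nfib for Vsx1-only against Ddit4l-only cells thus passed while moving from -1.13 to -5.72 without Müller-rich cells. Counts of genes called needed a similar number, gene lists 7 of their 10 genes, and shares a value inside the exact interval. Nfia and values without a mouse needed a move under the SD over retinas. Depth limits Nfib, with a median of 3 counts in Ddit4l-only and 4 in Sox6-only cells, and Nfic, with a median of 1 count in both.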
